A study of Mus musculus with 4 samples.

Results

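Chaperone and protein folding genes were examined for NR1D1 peaks in primary smooth muscle cells from the aorta of wild-type mice. The genes are those annotated by RefSeq on the mouse build mm10 as protein-coding with symbols that start with Hsp, Dnaja, Dnajb, Dnajc or Pdia, or with Cct and a digit, together with Canx, Calr and Tcp1 and without Hspg2. They number 91 of the 21887 protein-coding genes on chromosomes 1 to 19, X and Y. By their known place in the cell 52 belong to the cytosol or nucleus, 20 to the endoplasmic reticulum (ER), 10 to the mitochondrion and 9 to vesicles, the cilium or no clear site. Vasostatin-2, a fragment of chromogranin A, was given to the cells for 24 h, and control cells received PBS (phosphate-buffered saline). Each treatment has 1 NR1D1 library, and all libraries carry the label batch1. Libraries made with IgG were not analysed here.

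NR1D1 (REV-ERB alpha) is a nuclear receptor of the circadian clock that represses transcription through the NCoR-HDAC3 corepressor and binds the nuclear receptor site AGGTCA beside A and T bases. In CUT&Tag an antibody against it tethers a transposase to chromatin, which cuts out the DNA nearby for sequencing. Chaperones help proteins to fold. In the cytosol Hsp70 proteins work with J proteins, Hsp90 and the ring-shaped chaperonin TRiC, and heat shock factor 1 activates many of their genes through heat shock elements. In the ER the Hsp70 protein BiP, the Hsp90 protein GRP94, the lectin chaperones calnexin and calreticulin and the protein disulfide isomerases fold secreted and membrane proteins. The unfolded protein response activates their genes through ER stress response elements. Smooth muscle cells that make matrix secrete much protein through the ER.

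A gene was counted where any base of a peak lay within 3 kb of either gene end. As each treatment rests on a single library, there is no replicate error and a treatment effect was not tested. The Wilson intervals given cover counting error only. A peak list holds no expression values, so the identity of the cells cannot be checked from it. The smooth muscle markers Acta2, Myh11, Tagln and Cnn1 had a peak at an end in 0 of 4 cases in both lists, which says nothing about their expression.

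The promoters of 8 members that the results turn on are printed first. Each runs from 250 bases before to 50 after an annotated start, 5′ to 3′, from RefSeq on GRCm38.p6, the assembly of mm10. Capitals mark every match, on either strand, of AGGTCA, of the E-box CACGTG, of a heat shock element (GAA, TTC and GAA in a row with 2 bases between them, or TTC, GAA and TTC), and of the ER stress response element (CCAAT and CCACG with 9 bases between them). The heat shock forms can overlap each other. The first 5 are ER members whose promoter holds the ER stress response element, the next 3 hold a heat shock element. All 8 had a PBS peak near the start. Pdia6, a further ER member with the element, is not printed and had no peak at an end in either list. The printed set therefore does not show how often element and peak go together.
Hspa5 (chr2:34771840-34772139, plus strand): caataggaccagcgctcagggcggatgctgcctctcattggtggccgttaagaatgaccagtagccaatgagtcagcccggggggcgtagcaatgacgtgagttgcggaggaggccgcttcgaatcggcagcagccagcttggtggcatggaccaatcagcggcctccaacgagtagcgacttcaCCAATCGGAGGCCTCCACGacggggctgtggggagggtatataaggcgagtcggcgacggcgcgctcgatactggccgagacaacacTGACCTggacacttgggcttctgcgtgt
Hsp90b1 (chr10:86705395-86705694, minus strand): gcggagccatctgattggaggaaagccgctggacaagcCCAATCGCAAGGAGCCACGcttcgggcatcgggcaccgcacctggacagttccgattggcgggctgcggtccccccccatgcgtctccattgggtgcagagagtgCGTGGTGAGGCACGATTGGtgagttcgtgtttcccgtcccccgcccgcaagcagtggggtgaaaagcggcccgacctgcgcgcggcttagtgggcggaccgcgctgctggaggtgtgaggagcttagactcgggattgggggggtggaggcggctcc
Calr (chr8:84846882-84847181, minus strand): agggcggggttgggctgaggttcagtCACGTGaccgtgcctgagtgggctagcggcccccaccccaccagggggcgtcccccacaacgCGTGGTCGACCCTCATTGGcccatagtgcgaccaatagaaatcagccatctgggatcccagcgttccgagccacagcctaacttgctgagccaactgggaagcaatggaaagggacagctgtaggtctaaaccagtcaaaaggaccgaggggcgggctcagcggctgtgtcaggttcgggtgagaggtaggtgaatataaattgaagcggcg
Canx (chr11:50325624-50325923, minus strand): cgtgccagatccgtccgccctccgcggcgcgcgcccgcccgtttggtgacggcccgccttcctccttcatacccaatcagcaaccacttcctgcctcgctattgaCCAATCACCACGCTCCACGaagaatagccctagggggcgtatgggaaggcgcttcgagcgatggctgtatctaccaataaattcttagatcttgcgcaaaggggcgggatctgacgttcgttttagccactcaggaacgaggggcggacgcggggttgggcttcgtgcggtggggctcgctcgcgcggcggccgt
Dnajc3 (chr14:118937682-118937981, plus strand): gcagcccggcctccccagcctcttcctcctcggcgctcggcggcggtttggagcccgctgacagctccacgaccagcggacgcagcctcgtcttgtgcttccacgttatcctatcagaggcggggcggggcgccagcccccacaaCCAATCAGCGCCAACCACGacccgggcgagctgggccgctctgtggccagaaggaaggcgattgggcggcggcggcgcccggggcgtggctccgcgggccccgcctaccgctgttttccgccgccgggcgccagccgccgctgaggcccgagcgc
Hsph1 (chr5:149636266-149636565, minus strand): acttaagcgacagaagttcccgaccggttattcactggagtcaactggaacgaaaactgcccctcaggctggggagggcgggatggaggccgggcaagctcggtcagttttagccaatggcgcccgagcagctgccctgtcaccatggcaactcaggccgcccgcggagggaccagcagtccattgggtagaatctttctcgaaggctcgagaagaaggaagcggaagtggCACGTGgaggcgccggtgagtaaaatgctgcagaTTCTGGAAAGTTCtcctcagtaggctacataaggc
Hspd1 (chr1:55087883-55088182, minus strand): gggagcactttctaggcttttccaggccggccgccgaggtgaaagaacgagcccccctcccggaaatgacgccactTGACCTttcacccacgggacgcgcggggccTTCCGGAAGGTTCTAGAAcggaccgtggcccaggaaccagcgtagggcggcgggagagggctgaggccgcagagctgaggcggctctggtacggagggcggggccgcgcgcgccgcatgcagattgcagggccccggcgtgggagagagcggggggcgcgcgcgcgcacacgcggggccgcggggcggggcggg
Dnajb6 (chr5:29735648-29735947, plus strand): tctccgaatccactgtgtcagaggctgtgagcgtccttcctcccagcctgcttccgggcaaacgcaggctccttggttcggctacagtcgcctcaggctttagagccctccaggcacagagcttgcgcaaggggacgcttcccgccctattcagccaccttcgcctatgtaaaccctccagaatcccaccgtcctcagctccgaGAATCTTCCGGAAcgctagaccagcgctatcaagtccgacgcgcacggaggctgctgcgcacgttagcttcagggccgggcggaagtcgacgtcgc

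NR1D1 peaks lay at the ends of 31 of the 91 genes in the vasostatin-2 list (34.1%, 95% Wilson interval 25.2 to 44.3) and of 36 in the PBS list (39.6%, 30.1 to 49.8). Over all protein-coding genes the shares were 13.8% in the vasostatin-2 list and 18.1% in the PBS list. Both lists held 20 of the members (22.0%), against 9.01% of all genes. The vasostatin-2 list alone held 11 members (12.1%), against 4.83% of all genes, and the PBS list alone 16 (17.6%), against 9.06%. The remaining 44 members had no peak at an end in either list, and 7 of these had one farther inside the gene. Those 7 were Dnajc1, Dnajc18, Dnajc27 and Hspa12a in the vasostatin-2 list, with 4 peaks in Hspa12a, and Dnajc5b, Dnajc6, Pdia5 and again Hspa12a in the PBS list. How far the vasostatin-2 share stood above that of all genes depended on the limit set on peaks. Among peaks above the median fold of their own list, 16.5% of members had a vasostatin-2 peak, against 7.88% of all genes, and with at least 8 fragments 19.8%, against 8.29%. With q under 1e-05, 5.49% of members had a peak in the vasostatin-2 list, against 4.47% of all genes, and 24.2% in the PBS list, against 8.82%. With at least 8 fragments and vasostatin-2 scaled to the PBS depth the shares were 4.40% in the vasostatin-2 list, against 4.14%, and 34.1% in the PBS list, against 12.8%.

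**Figure D1:**
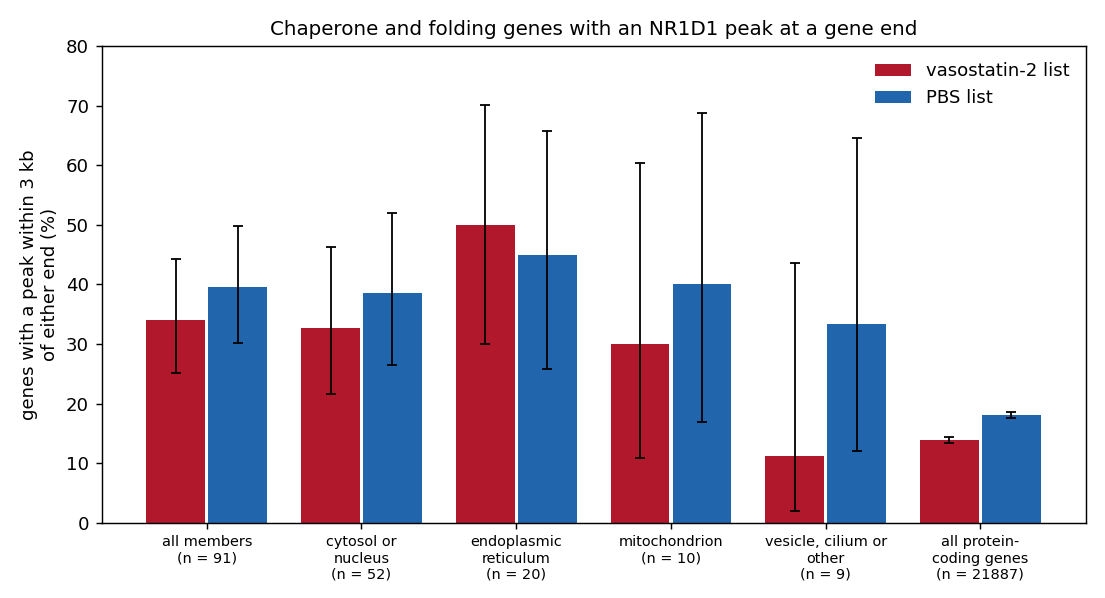
Percent of genes whose ends lie within 3 kb of a peak, by compartment (bars: share; whiskers: 95% Wilson interval; number of genes under each label). The shares of all members, 34.1% in the vasostatin-2 list and 39.6% in the PBS list, stand above those of all protein-coding genes, 13.8% and 18.1%, and the intervals of the compartments overlap.

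Which of the ER and cytosolic members had the higher share of genes with a peak depended on the window, and at 3 kb the intervals were wide. In the vasostatin-2 list 10 of the 20 ER genes had a peak (50%, 29.9 to 70.1), and 17 of the 52 genes of the cytosol or nucleus (32.7%, 21.5 to 46.2). In the PBS list these counts were 9 ER genes (45%, 25.8 to 65.8) and 20 genes of the cytosol or nucleus (38.5%, 26.5 to 52.04). The intervals overlap, and the difference between the compartments was not tested. With 1 kb the order turned in the vasostatin-2 list, where 25% of ER and 28.8% of cytosolic members had a peak. These are 5 of 20 and 15 of 52 genes, against 10.4% of all genes. With 10 kb it turned in the PBS list, at 45% of ER members, 46.2% of cytosolic members and 25.6% of all genes. Of the 10 mitochondrial members 3 had a vasostatin-2 peak and 4 a PBS peak, and of the 9 members of vesicles, the cilium or no clear site 1 and 3.

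Among families the shares ranged widely, on few genes each. Of the 14 Hsp70 and Hsp110 genes, which encode the ATP-driven chaperones, 8 had a peak in the vasostatin-2 list and 8 in the PBS list, 6 of them in both. Of the 3 Hsp90 genes 2 had a vasostatin-2 peak and all 3 a PBS peak. Both lectin chaperone genes had peaks in both lists. Protein disulfide isomerase genes, whose products form and shuffle disulfide bonds, counted 3 of 5 in the vasostatin-2 list and 2 in the PBS list. Of the TRiC genes, whose products fold actin and tubulin, 3 of 10 had a vasostatin-2 peak and 4 a PBS peak, and of the small heat shock protein genes 3 of 8 and 2. J proteins are the partners that stimulate Hsp70. Of the type A genes 1 of 4 had a vasostatin-2 peak and 2 a PBS peak, of type B 3 of 13 and 4, and of type C 4 of 28 and 6. The type C shares, 14.3% and 21.4%, are near those of all protein-coding genes, 13.8% and 18.1%.

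**Figure D2:**
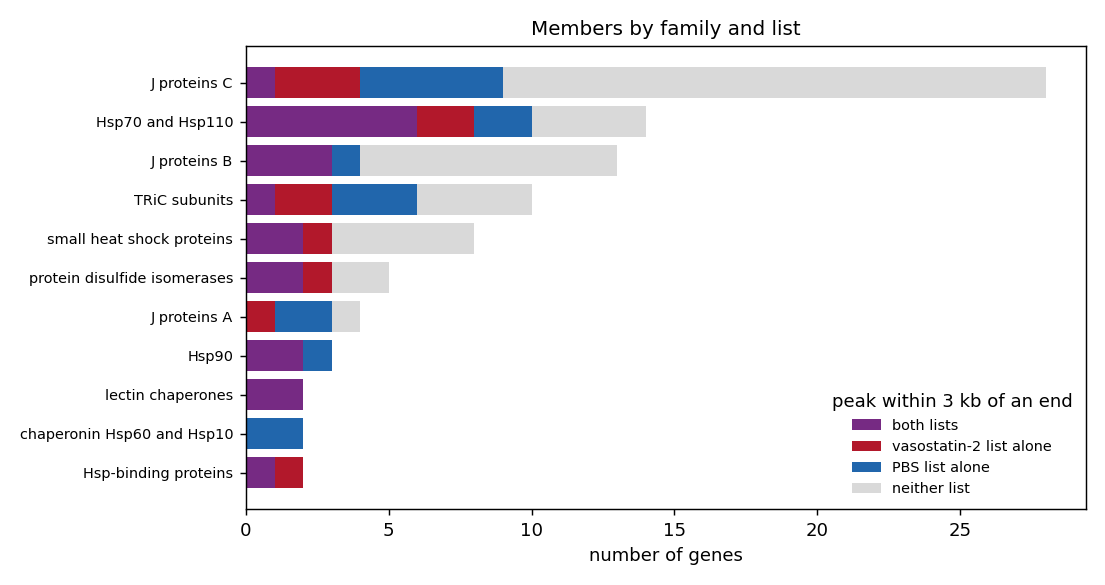
Number of members per family with a peak within 3 kb of an end in both lists, in the vasostatin-2 list alone, in the PBS list alone or in neither. Of the 28 type C J protein genes 19 had no peak in either list, while all 3 Hsp90 genes had a peak in at least 1 list. Of all 21887 protein-coding genes 16875 had no peak in either list, and 22.9% had one in at least 1 list, against 32.1% of type C genes.

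Most member peaks sat close to an annotated start in both lists. In the vasostatin-2 list 18 of the 27 distinct peaks at genes with an annotated start had their summit within 1 kb of it, at a median distance of 154 bp. In the PBS list 28 of 32 did, at a median of 132 bp, and 21 of these 28 summits lay upstream. All these peaks were chosen for lying within 3 kb of a gene end. The share of all gene-end peaks with a summit within 1 kb of a start is not given. These counts are therefore not shown to be particular to members. At the level of genes 18 of the 76 members with an annotated start had such a summit in the vasostatin-2 list (23.7%, 15.5 to 34.4), against 10.4% of all protein-coding genes. In the PBS list 30 did (39.5%, 29.2 to 50.7), against 15.5%. Peaks overlapping between the lists made up 19 of the 32 vasostatin-2 peaks at members (59.4%) and 19 of the 38 PBS peaks (50%), against 55.3% and 42.7% of all peaks at protein-coding gene ends. A peak could serve neighbouring genes, and 15 of the 32 vasostatin-2 peaks and 17 of the 38 PBS peaks at members were also within 3 kb of another protein-coding gene's end.

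**Figure D3:**
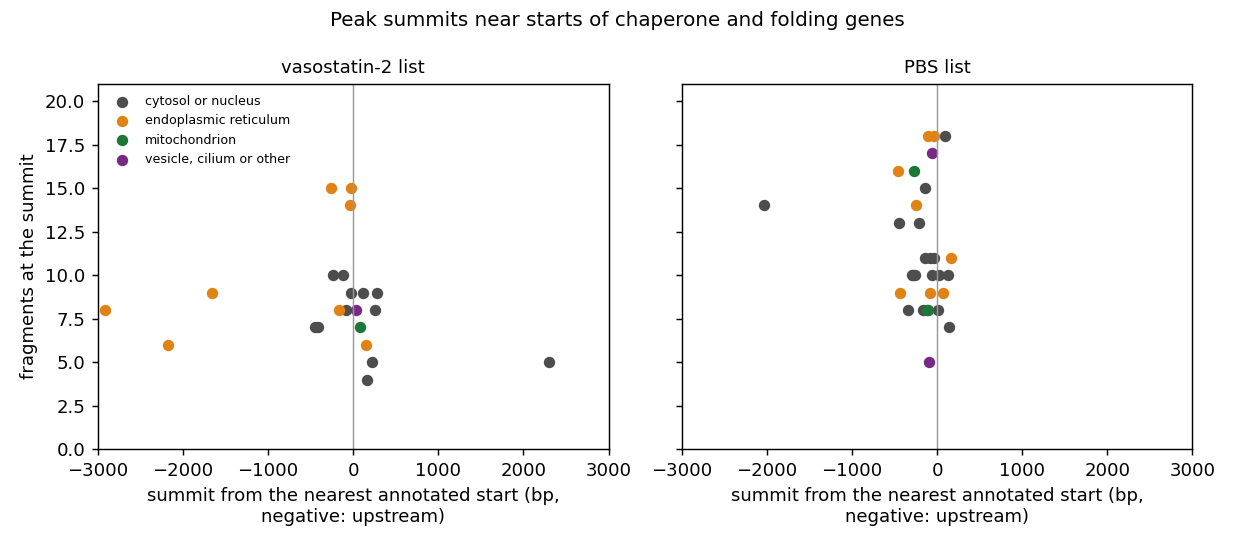
Fragments at the summit against the distance of the summit from the nearest annotated start (bp, negative upstream), for member peaks of the vasostatin-2 list (left, 22 points) and the PBS list (right, 31 points); colours mark the compartment, and 5 and 3 points farther than 3 kb are left out. Points gather at the start in both lists, where the vasostatin-2 list reaches 15 fragments and the PBS list 18.

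Signal at the summits was small in both libraries. The number of fragments at each summit was recovered from the authors' fold enrichment and p-value. Member summits held 4 to 15 fragments in the vasostatin-2 library (median 8) and 5 to 25 in the PBS library (median 10). All peaks within 3 kb of protein-coding gene ends had medians of 8 and 9. The highest fold enrichment of a member, the ratio of the summit to its local background, was 8.53 in the vasostatin-2 list (Pdia4) and 10.7 in the PBS list (Canx), where the lists reach 42.4 and 39.6. By the background of the peaks the vasostatin-2 library was the deeper, at about 1.32 times the PBS depth. This is a rough estimate whose error was not measured, and all values scaled to depth rest on it. All fold values are the authors' and serve to describe peaks within their own list.

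Among ER members the Hsp70 gene Hspa5, which encodes BiP, the main Hsp70 of the ER lumen, had a peak at its start in both lists. The summits held 14 fragments in the vasostatin-2 library and 14 in the PBS library, 40 and 243 bp upstream of the start, at 6.46-fold and 5.39-fold enrichment. The peaks span chr2:34771802-34772212 and chr2:34771635-34772154, and the ER stress response element in the printed promoter, at -65 to -47 from the start, lies inside both. A second vasostatin-2 peak of 9 fragments lay 1664 bp upstream. Hsp90b1, which encodes GRP94, had 8 fragments in the vasostatin-2 library and 9 in the PBS library, 171 and 435 bp upstream. Both of its peaks lie before the start. They hold the element at -212 to -194 and end before the further one at -107 to -89.

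At the lectin chaperone genes the peaks at the start were listed for PBS alone. Calr, which encodes calreticulin, had 1 vasostatin-2 peak, with 8 fragments 1511 bp beyond the end away from its start, and none at its start. In the PBS library it had 18 fragments 38 bp upstream of its start, at 7.76-fold enrichment. The PBS peak, chr8:84846700-84847415, holds the element at -162 to -144. Canx, which encodes calnexin, likewise had no vasostatin-2 peak at its start and a PBS peak there, chr11:50325658-50325921, with 18 fragments 111 bp upstream at 10.7-fold enrichment and the element at -145 to -127 inside it. Both lists held a further peak 1452 and 1435 bp beyond the other end of Canx, with 6 fragments in the vasostatin-2 library and 10 in the PBS library, which also counted for Maml1. The start peaks missing from the vasostatin-2 list are not shown to be absent from the cells, since most peaks of that list rest on 4 to 8 fragments.

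The disulfide isomerase genes Pdia4 and Pdia3 held the highest member peaks of the vasostatin-2 list. Pdia4 had 15 fragments in the vasostatin-2 library and 11 in the PBS library, at 8.53-fold and 6.51-fold enrichment. The peaks span chr6:47813198-47813691 and chr6:47813246-47813686, with summits 22 bp upstream and 169 bp downstream of the start. Pdia3 had 15 and 16 fragments, 261 and 456 bp upstream of its start. Pdia2 had a peak in the vasostatin-2 list alone, with 6 fragments 2178 bp upstream of its start, and Pdia5 and Pdia6 had none at an end. The remaining ER members with peaks were J protein genes and Hspa13. Dnajb12 had 6 fragments in the vasostatin-2 library and 9 in the PBS library, 149 and 73 bp downstream of the start. Dnajc3, which encodes a J protein of the ER lumen, had 9 fragments 83 bp upstream in the PBS list alone. Dnajc14 had 7 in the PBS list alone, Dnajc16 8 and Hspa13 5 in the vasostatin-2 list alone, all more than 2 kb from the gene's end. Dnajb9, a target of the unfolded protein response, had no peak at an end in either list. The start peaks of Hspa5, Hsp90b1, Pdia3 and Pdia4 also lay within 3 kb of an end of Rabepk, Ttc41, Catsper2 and Zfp786, so they cannot be tied to the folding gene alone.

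Among the cytosolic Hsp70 genes Hspa8, which encodes the constitutive Hsc70, had the highest summit of all members. It held 13 fragments in the vasostatin-2 library and 25 in the PBS library, at 6.20-fold and 9.98-fold enrichment, and the PBS peak spans chr9:40800760-40801405 with its summit 30 bp from a gene end. Hsph1, which encodes the exchange factor Hsp110, had 10 fragments in the vasostatin-2 library and 15 in the PBS library, 119 and 144 bp upstream of the nearer of its starts. Hspa2 had 7 and 13. The stress-induced pair Hspa1a and Hspa1b are near-identical copies, so the values at either are uncertain. Hspa1b had 10 fragments 240 bp upstream in the vasostatin-2 library and 8 fragments 337 bp upstream in the PBS library, and a further PBS peak of 14 fragments lay 2039 bp upstream. Hspa1a was found in the PBS list alone, with 10 fragments 290 bp upstream, between it and the divergent Hspa1l, for which the same peak counted. Hspa1l also had an overlapping pair of peaks near its other end, shared with Lsm2. Hspa4 had 11 fragments 40 bp upstream of its start in the PBS list alone.

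The cytosolic Hsp90 genes differed from each other. Hsp90ab1, the constitutive form, had 10 fragments in the vasostatin-2 library and 15 in the PBS library, 67 and 34 bp from a gene end. Hsp90aa1, the inducible form, had no vasostatin-2 peak and 2 PBS peaks of 6 fragments each, 70 and 2708 bp from its ends. Of their partners, Dnajb1, the J protein that works with Hsp70 in refolding, had 9 fragments in the vasostatin-2 library and 18 in the PBS library, 117 and 95 bp downstream of a start. Dnajb2 had 9 and 8 fragments, and Hspbp1, which encodes a nucleotide exchange factor of Hsp70, 8 and 10. Dnajb6, which encodes a suppressor of protein aggregation, had 10 fragments 287 bp upstream in the PBS list alone, and Dnaja1 10 fragments 125 bp downstream of a start. Dnaja2 had 5 fragments in the vasostatin-2 list alone, 226 bp downstream of its start.

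The TRiC subunits are encoded by Tcp1 and the Cct genes. Cct7 was found in both lists, with 9 fragments in the vasostatin-2 library and 10 in the PBS library. Cct3 and Cct6a had 11 fragments each in the PBS list alone, and Tcp1 had 8, with summits 138, 83 and 165 bp upstream of the start. The testis paralog Cct6b had 4 fragments and the related Cct8l1 5 in the vasostatin-2 list alone. The Cct3 and Cct6a peaks also lay within 3 kb of an end of Tsacc and Psph, and that of Tcp1 of Mrpl18. Cct2, Cct4, Cct5 and Cct8 had no peak within 3 kb. Cct5 was just outside, with its nearest peaks 3330 bp from an end in the vasostatin-2 list and 3464 bp in the PBS list. The member counted at the greatest distance was Dnajc16, with its vasostatin-2 peak 2841 bp from an end.

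Small heat shock proteins hold unfolded proteins in solution. Hspb6, a small heat shock protein abundant in smooth muscle, had 7 fragments in the vasostatin-2 library and 13 in the PBS library, upstream of its start at 454 and 207 bp. Hspb7 had 10 fragments in the vasostatin-2 list alone, 742 bp from a gene end, and Hspb1, Hspb2, Hspb3, Hspb8 and Hspb9 had no peak at an end. Hspb11, which encodes an intraflagellar transport protein despite its name, had 8 fragments in the vasostatin-2 library and 17 in the PBS library. The Hspb6 peaks also counted for Lin37 and Proser3, and those of Hspb11 for Lrrc42.

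The mitochondrial chaperonin genes Hspd1 and Hspe1, which encode Hsp60 and its lid Hsp10, lie head to head, with no vasostatin-2 peak listed at either, and share a single PBS peak of 8 fragments on chr1:55087997-55088297. Its summit was 101 bp upstream of an Hspd1 start and 115 bp upstream of the Hspe1 start. Hspa9, which encodes the mitochondrial Hsp70 mortalin, was found in the vasostatin-2 list alone, with 9 fragments 243 bp from a gene end. The nearest PBS peak lay 3959 bp from an end of Hspa9, outside the window. Dnaja3, the J protein partner of mortalin, had the highest fold enrichment among genes with a PBS peak alone, 9.08-fold with 16 fragments 276 bp upstream. Dnajc11, a protein of the mitochondrial membranes, had 7 and 8 fragments in the vasostatin-2 and PBS libraries, and Dnajc4 had 7 in the vasostatin-2 list alone.

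Members found in a single list were also described by where their peaks lay. Of the 11 members found in the vasostatin-2 list alone, 9 had an annotated start and 4 of these a summit within 1 kb of it. Of the 16 found in the PBS list alone, 14 had an annotated start and 13 such a summit. The same counts over all genes found in 1 list are not given here. Over all protein-coding genes with a start, 10.4% had such a summit in the vasostatin-2 list and 15.5% in the PBS list. These shares include genes without any peak, so they do not match counts among members chosen for having one. Whether the difference between the group of the vasostatin-2 list alone and that of the PBS list alone is particular to members was not tested. The highest summit of a gene held 4 to 10 fragments in the first group (median 6) and 5 to 16 in the second (median 8.5). The genes of highest fold in the vasostatin-2 list alone were Dnajc17 (5.85-fold), Hspb7 (5.25-fold) and Dnajc16 (4.75-fold). Dnajc17 encodes a nuclear J protein, and its peak of 8 fragments lay 257 bp downstream of a start, also near Zfyve19. After Dnaja3, the highest in the PBS list alone were Cct6a (7.51-fold), Hspa1a (6.60-fold) and Cct3 (6.58-fold). Further members with a vasostatin-2 peak alone were Hspbap1, and with a PBS peak alone Dnajc7, Dnajc13 and Dnajc22.

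Where peaks of both lists overlapped, the vasostatin-2 library held fewer fragments per depth at 18 of 19 members. Of 1380 overlapping pairs at all protein-coding genes, limited to those below 100 PBS fragments, 94.3% were lower. Fragments are those at each library's own summit. At members the paired summits lay a median of 97 bp apart, and up to 335 bp at Hspa8. The 19 members are those found in both lists except Calr. The median of their log2 ratios of vasostatin-2 over PBS fragments, scaled to depth, was -0.98, between -1.51 and 0.05. Over the 1013 of these pairs with the same range of 15 to 38 fragments together, the median was -0.79 and 94.8% were lower in the vasostatin-2 library. The members' count is near this background. Without depth scaling the members' median was -0.58, and that of the 1013 pairs -0.39.

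**Figure D4:**
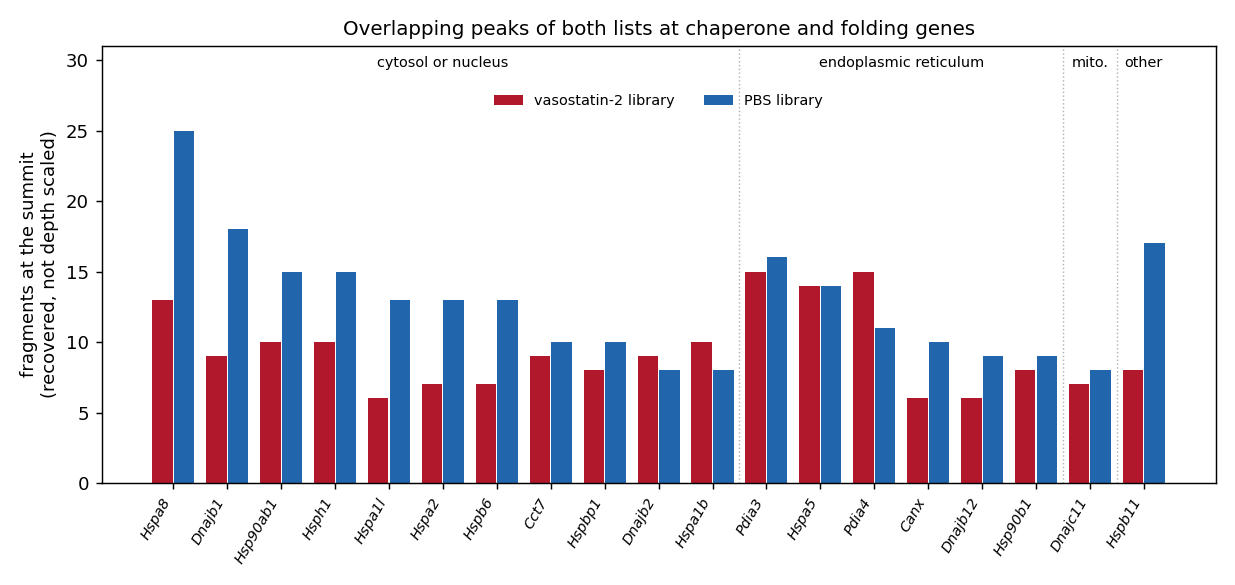
Fragments at the summits of overlapping peaks at 19 members (left bar of a pair: vasostatin-2 library; right bar: PBS library), grouped by compartment. Hspa8 held 13 fragments in the vasostatin-2 library and 25 in the PBS library, while Hspa5 held 14 in both and Pdia4 15 and 11.

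By compartment the 11 cytosolic pairs had a median log2 ratio of -0.98, and all 11 were below 0. The 6 ER pairs had a median of -0.53, and 5 were below 0. In sum the cytosolic summits held 98 fragments in the vasostatin-2 library and 148 in the PBS library, and the ER summits 64 and 69. These sums cover overlapping pairs alone. Peaks without a partner, such as the PBS start peaks of Calr, Canx and Hspa4, do not enter them. The pairs of Canx and Hspa1l lie away from the starts of these genes. For single genes the exact 95% counting interval was wide. It lay below 0 at Hspa8 (-1.34, interval -2.43 to -0.32), Dnajb1 (-1.40, -2.74 to -0.17) and Hspa1l (-1.51, -3.20 to -0.02) and at Hspb11 (-1.49, -2.91 to -0.20), and at none of the ER members. These are 4 of 19 members, against 161 of the 1013 pairs of the same range. The 4 depend on the depth estimate, since without scaling 0 of 19 intervals lay below 0. After scaling Pdia4 alone was above 0, at 0.05 (-1.17 to 1.32). Without scaling Pdia4 (0.45), Hspa1b (0.32) and Dnajb2 (0.17) were above 0, Hspa5 was equal in both libraries, and the medians were -0.58 for cytosolic and -0.13 for ER pairs. The ER and cytosolic values overlap, and their difference was not tested. With 1 library each, treatment and library cannot be told apart in these ratios.

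**Figure D5:**
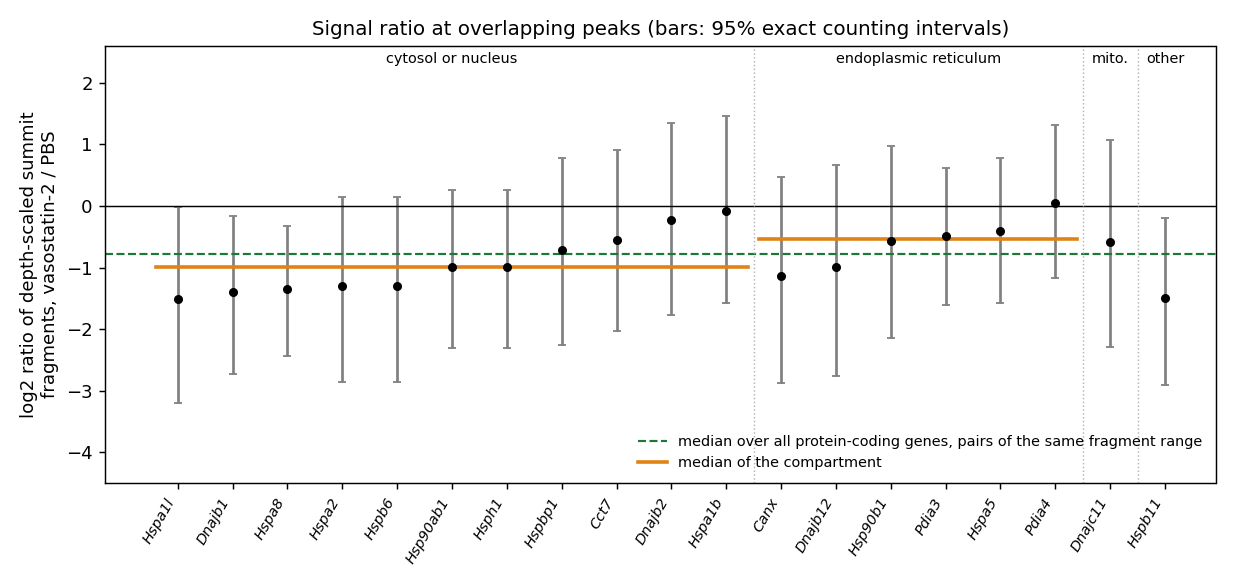
Log2 of vasostatin-2 over PBS summit fragments, scaled to depth, at overlapping peaks, with exact 95% counting intervals; orange lines are compartment medians and the dashed line is the median of all protein-coding pairs of the same fragment range. The ER median of -0.53 and the cytosolic median of -0.98 lie on either side of the -0.79 of all genes, and most intervals reach 0.

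Several stress response elements in member promoters lay inside peaks, by small counts. Promoters were given for 76 members, with 95 starts. The ER stress response element was found in 30 of the 21263 promoters of protein-coding genes (0.141%), and in those of 6 members, all of the ER: Hspa5, Hsp90b1, Calr, Canx, Dnajc3 and Pdia6. These promoters hold 7 matches. Of the 7, 2 lay inside a vasostatin-2 peak (Hspa5 and Hsp90b1) and 5 inside a PBS peak (those of Hspa5, Hsp90b1, Calr, Canx and Dnajc3). Over all genes 4 of the 30 promoters with the element had a vasostatin-2 summit within 1 kb of the start and 7 a PBS summit. That counts summits near the start and not matches inside a peak. The 30 include those of the 6 members, of which 2 had such a vasostatin-2 summit and 5 such a PBS summit. The heat shock element was found in 0.517% of all promoters and in those of 4 members: Hsph1, Dnajb6, Hspd1 and Hspe1. Of their 4 distinct matches 0 lay inside a vasostatin-2 peak and all 4 inside a PBS peak. Hsph1 has a vasostatin-2 peak, which lies farther upstream than its match. Hspd1 and Hspe1 share both the peak and 2 of the 4 matches, which overlap each other. Over all genes 17 of the 110 promoters with the heat shock element had a vasostatin-2 summit within 1 kb of the start and 26 a PBS summit. The 110 include 6 promoters of the 4 members. Counted by gene and not by promoter, 1 of the 4 members had such a vasostatin-2 summit and 4 such a PBS summit. The share of all genes with a summit at the start, given above, is also higher in the PBS list. Whether the receptor sits at these elements was not tested.

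The nuclear receptor site AGGTCA was matched without asking for A and T bases beside it. It was found in 17 of the 95 member promoters (17.9%, 11.5 to 26.8), an interval that includes the 14.7% of all promoters. Of the 43 member promoters with a summit within 1 kb in either list 9 held it (20.9%, 11.4 to 35.2), and of the 52 without 8 (15.4%, 8.01 to 27.5). Over all protein-coding genes the order was the other way, with 10.97% of the 3802 promoters with a summit and 15.5% of the 17461 without. Mitochondrial members held it in 5 of 9 promoters, at 4 distinct sites, since Hspd1 and Hspe1 share one, and ER members in 2 of 19, Hspa5 and Pdia4. Of its 16 distinct matches at members 1 lay inside a vasostatin-2 peak and 3 inside a PBS peak. Hspa5 holds it just after its start, at 22 to 27, and the printed Hspd1 promoter at -174 to -169. The E-box, the site of the clock activators, was in 10 member promoters (10.5%), against 7.84% of all. Member promoters had a median of 62.3% G and C bases, against 56.3% over all protein-coding promoters. All promoters with a summit within 1 kb in either list had a median of 63.0% and those without 54.7%, while for members these were 62.7% and 61.0%. The part of base composition in the members' share was not tested.

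Genes that work with these chaperones had peaks too. Of 32 genes of ER folding and the unfolded protein response 9 had a peak in the vasostatin-2 list (28.1%) and 18 in the PBS list (56.2%), 7 in both. Those 7 were Atf4, Atf6b, Ddit3, P4hb, Manf, Derl2 and Syvn1. Ddit3, which encodes the stress factor CHOP, had 19 fragments in the vasostatin-2 library and 33 in the PBS library. P4hb, the founding protein disulfide isomerase, had 13 and 26, and Atf4, the main transcription factor of the integrated stress response, 10 and 13. Atf6b had 13 and 15, Manf 12 and 14, Syvn1 10 and 10 and Derl2 6 and 6. Found in the PBS list alone were 11 of the 32. Among these were Xbp1, with 9 fragments 1463 bp downstream of a start, Eif2ak3, which encodes PERK, with 10, and Hyou1 with 8. Ern1, which encodes the sensor IRE1 alpha, was found in the vasostatin-2 list alone, with 8 fragments. Of 23 cytosolic co-chaperones and heat shock factors 6 had a peak in the vasostatin-2 list (26.1%) and 9 in the PBS list (39.1%). The 6 were found in both: Stip1, which links Hsp70 to Hsp90, with 12 and 18 fragments, St13 with 9 and 20, Stub1, a ubiquitin ligase for chaperone clients, with 16 and 20, Bag6 with 13 and 20, Bag1 with 8 and 11, and Bag4 with 7 and 7. The heat shock factor genes Hsf1 and Hsf2 had no peak at an end. Of 9 mitochondrial folding and quality control genes 3 had a peak in each list, with Clpb (5 fragments for vasostatin-2 and 15 for PBS) and Hscb (9 and 10) in both. Over all protein-coding genes the shares per list were the 13.8% and 18.1% given above, with 9.01% in both lists and 9.06% in the PBS list alone.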

How the data were processed

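The submitters' processing notes name Trimmomatic 0.39, BWA 0.7.17, MACS2 2.2.7.1 and the build mm10, with no roles or settings, for these CUT&Tag libraries. The authors deposited 1 list per library, 8816 peaks for vasostatin-2 and 7377 for PBS, with no header and 10 columns: position, score, fold enrichment (a ratio), -log10 p-value and -log10 q-value of the summit. The deposited score, which equals 10 times the -log10 q without its decimals, was left aside. Read totals and the handling of reads with several matches are not given in the sources used here.

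Summit fragments were recovered as the whole number that gives both deposited values, fold and -log10 p, under a Poisson model with 1 added to each side of the fold. For 100% of peaks one was found within 0.0005. The background's floor (0.381 fragments for vasostatin-2, 0.310 for PBS) and its steps, read as fragments over an assumed 10000 bp window, gave the depth of 1.32. The steps fitted loosely. Background values lay on average 0.181 of a step from a whole number of steps for vasostatin-2, and 0.167 for PBS. Recovery, overlap and window steps were tested on simulated data.

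Gene ends were taken from RefSeq on GRCm38.p6, with no exons, and starts, strands and promoters from RefSeq for 76 members. Shared peaks overlap by at least 1 bp. Analyses used Python 3.11.15, pandas 2.3.3 and scipy 1.17.1; shares carry 95% Wilson intervals. No test was made between 2 single libraries. Members, compartments and lists were chosen with earlier results of these data known. Named are the members with a peak in both lists, the 8 of highest fold in each list alone with the further members found there, some main chaperones in any case, and pathway genes with a peak in both lists; other pathway genes were chosen after their values were seen.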

Additional observations from a re-analysis of the deposited data

How the results depend on the processing

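No paired analysis was possible because each treatment has 1 NR1D1 library. Of 82 recomputed values 59 stayed within the Wilson interval of a share, 1.5 times a count or the spread of the ratios, and 23 did not. Stricter settings leave fewer peaks by their own construction, and other causes were not tested. Summits of 4 to 8 fragments, which most peaks have, limit what can be said of a gene found in 1 list. A median log2 ratio below 0 was found for all, cytosolic and ER members with and without depth scaling.

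A window of 1 kb left 25% of ER members with a vasostatin-2 peak (10.4% of all genes) and 7 members in that list alone. A window of 10 kb raised the vasostatin-2 share of all members to 45.1%, against 22.6% of all genes. With q under 1e-05 it was 5.49% (4.47% of all genes), for PBS 24.2%, for vasostatin-2 in cytosolic and ER members 3.85% and 15%, with 5 members in both lists and 0 in the vasostatin-2 list alone. Among the peaks above their own list's median fold, vasostatin-2 shares were 16.5% of all members (7.88% of all genes), 17.3% of cytosolic and 25% of ER members, with 12 members in both lists and 3 found for vasostatin-2 alone. With at least 8 fragments the vasostatin-2 shares were 19.8% of all members (8.29% of all genes) and 19.2% of cytosolic members, with 4 in that list alone. After scaling to the PBS depth they were 4.40% of all members (4.14% of all genes), 1.92% of cytosolic and 15% of ER members, with 4 members in both, 0 found for vasostatin-2 alone and 27 for PBS alone.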
